A study of Mus musculus with 4 samples.

Results

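The 10 chemokine ligand genes *Ccl1*, *Ccl3*, *Ccl4*, *Ccl5*, *Ccl17*, *Ccl22*, *Cxcl2*, *Cxcl10*, *Cxcl16* and *Xcl1* were examined in group 2 innate lymphoid cells (ILC2s) of the airway. They were picked by gene symbol among the 24537 genes of the deposited tables, and all 10 were found, once each. RNA came from ILC2s in bronchoalveolar lavage (BAL) fluid, the cells flushed from the airways. The study asked how ILC2s activated acutely by IL-33 differ from ILC2s of chronic house dust mite (HDM) inflammation. The IL-33 group holds 2 libraries from mice given 3 doses of 0.5 µg of the alarmin IL-33, and the chronic HDM group 2 libraries from mice given 25 µg of mite extract 3 times a week for 5 weeks, each collected 1 day after the last dose. All mice were of the C57BL/6 background, 8 to 16 weeks old, and carried the GATIR allele, in which YFP is made together with GATA3. Cells were sorted as lineage-negative, Sca-1+ and YFP+, so the sort itself selects cells that transcribe *Gata3*. Lineage-negative cells lacked surface NK1.1, CD8α, CD5, CD4, CD3, Gr-1, FcεRIα, CD11c, CD11b and further lineage proteins. The sample labels give the IL-33 mice as Gata3-YFP/YFP with CD25 high cells and the HDM mice as Gata3-YFP/WT with CD25 low cells, whereas the methods of the study mention homozygous mice only. Stimulus, its duration, reporter genotype and CD25 class therefore cannot be told apart. The number of mice behind a library is not given in the sources used here, so p-values measure the spread between libraries, which may be technical.

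Chemokines are small secreted proteins that guide leukocytes along a gradient by binding receptors coupled to G proteins. In allergic airways, ligands of CCR4 and CCR8 are known for attracting type 2 helper T cells, ligands of CCR1 and CCR3 for attracting eosinophils, monocytes and T cells, ligands of CXCR3 for attracting type 1 T cells, and ligands of CXCR2 for attracting neutrophils. XCL1 acts on XCR1, a receptor of cross-presenting dendritic cells, and CXCL16 is made as a membrane protein that can be shed and binds CXCR6. Many ILC2s carry CCR8 and CXCR6 themselves.

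Chemokines are classed by the spacing of their first conserved cysteines, and the 5 coding stretches shown here, of 30 bases each, give an example of every class among the 10 genes. Capitals mark the cysteine codons. The letters are from GENCODE M21 transcripts (GRCm38, the assembly of mm10), 5′ to 3′ on the coding strand, and each stretch lies within exon 2 of its gene. *Xcl1* has a single codon of the pair (chr1:164932957-164932986, minus strand), *Ccl1* (chr11:82178093-82178122, minus strand) and *Ccl17* (chr8:94811203-94811232, plus strand) have adjacent codons, and *Cxcl10* (chr5:92348169-92348198, minus strand) and *Cxcl16* (chr11:70459115-70459144, minus strand) have 1 codon in between.
Xcl1: gagagtagcTGTgtgaacttacaaacccag
Ccl1: tccaatagcTGCTGCttgaacaccttgaag
Ccl17: ggccgagagTGCTGCctggattacttcaaa
Cxcl10: acggtccgcTGCaacTGCatccatatcgat
Cxcl16: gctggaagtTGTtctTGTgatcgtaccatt

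Expression is given in RPKM, reads scaled to exon length and to the number of mapped reads, which can be compared between genes. Reads recovered from the steps of the RPKM values totalled 12054779 and 10696030 over genes for IL-33, against 16092353 and 15650652 for chronic HDM. Genes with reads numbered 13102 and 12895 after IL-33, against 10675 and 12134 after chronic HDM. The transcription factor *Gata3* and the IL-33 receptor gene *Il1rl1* had reads in all 4 libraries, as did the other 12 of 14 genes listed for ILC2 identity. Their levels were not alike in the groups. *Gata3* had 14.9 and 18.9 RPKM after IL-33, against 216 and 195 RPKM after chronic HDM. *Il1rl1* had 77.3 and 79.9 RPKM after IL-33, against 217 and 205 RPKM after chronic HDM. The CD25 gene *Il2ra* went the other way, at 432 and 376 RPKM after IL-33, against 27.6 and 22.0 RPKM after chronic HDM. Of the markers of other cells, *Cd4*, *Cd5*, *Cd8a* and *Cd8b1* (T cells), *Ms4a1* and *Pax5* (B cells), *Klrb1c* and *Klra8* (NK cells), *Epx* (eosinophils), *Ly6g* and *Csf3r* (neutrophils) and *Ms4a2* (mast cells and basophils) had no read in any library. The sort removed cells with surface CD4, CD5, CD8α, NK1.1 (*Klrb1c*), Gr-1 or FcεRIα, so part of this absence was set by the gate. Macrophage markers were present and uneven. Of 18, 13 and 12 had reads in IL-33 replicates 1 and 2, and 8 and 17 in chronic HDM replicates 1 and 2. Their summed level was 1255 and 287 RPKM after IL-33, against 3112 and 8648 RPKM after chronic HDM. Without *Chil3* and *Lyz2*, which make up most of this sum, it was 29.6 and 8.70 RPKM after IL-33, against 35.2 and 227 RPKM after chronic HDM, and *Fcgr1* was at 0 throughout. Genes listed as dendritic cell markers summed to 2127 and 2148 RPKM after IL-33, against 219 and 356 RPKM after chronic HDM. This came mainly through the MHC class II gene *H2-Ab1* and the invariant chain gene *Cd74*, with *Fscn1* and *Cd209a* at 0. ILC2s can express MHC class II themselves, as the paper states. Sums in the 4 libraries, IL-33 first, were 154, 186, 271 and 243 RPKM for T cell markers (*Lat* and *Cd3g* leading), 39.1, 27.8, 8.74 and 6.82 RPKM for B cell markers (*Cd79b*) and 10.1, 21.3, 0 and 63.5 RPKM for NK cell markers (*Gzma*). In the same order they were 52.3, 44.6, 0 and 2.87 RPKM for mast cell and basophil markers (*Mcpt8*) and 20.6, 4.001, 55.8 and 45.5 RPKM for eosinophil markers (*Ear2*). The last 2 lists summed to 0.420, 0.566, 14.1 and 9.17 RPKM for neutrophil markers (*S100a8*) and 14.6, 5.52, 25.7 and 78.4 RPKM for epithelial markers (*Scgb1a1* and *Epcam*).

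Ligand RNA was found in both groups, at low to moderate levels. In chronic HDM-stimulated ILC2s, *Cxcl10* and *Cxcl2* were higher in both libraries than in either IL-33 library, and *Xcl1* was high in 1 of them. *Ccl1*, the most abundant of the 10 genes on average, was present in all 4 libraries at 18.3 to 32.1 RPKM. *Ccl3*, *Ccl4*, *Ccl5*, *Ccl17*, *Cxcl16* and *Xcl1* differed more between libraries of a group, on the log2 scale, than between the group means. For the test with limma, values were put on the log2(RPKM + 1) scale, which shrinks the differences of genes near 0 RPKM, and genes averaging under 2 RPKM across libraries were left out. Calls needed adjusted p-values below 0.01 together with a difference of more than 1 log2 unit up or down, where positive values mean higher after IL-33. Of the 10 ligands, 7 passed the minimum and were tested, and 0 were called, against 3.34% of the 9523 genes tested. At an unadjusted p under 0.05 from limma there were 2, *Cxcl10* and *Xcl1*, against 36.7% of all genes, and limma-voom on recovered reads called 0 of all genes, the ligands included. With an adjusted p under 0.05 *Cxcl10* alone passed, against 18.5% of all genes. Libraries did not overlap between the groups for 3 of the 7 tested ligands (*Ccl1*, *Cxcl10* and *Xcl1*), against 65.2% of all genes. The median log2 fold change of the 7 was -0.36, beside 0.28 for all genes tested, and with 2 libraries a group an exact permutation test of 1 gene cannot give a two-sided p below 0.33. In such bulk RNA, fewer cells making a transcript and less RNA per cell cannot be told apart.

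**Figure D1:**
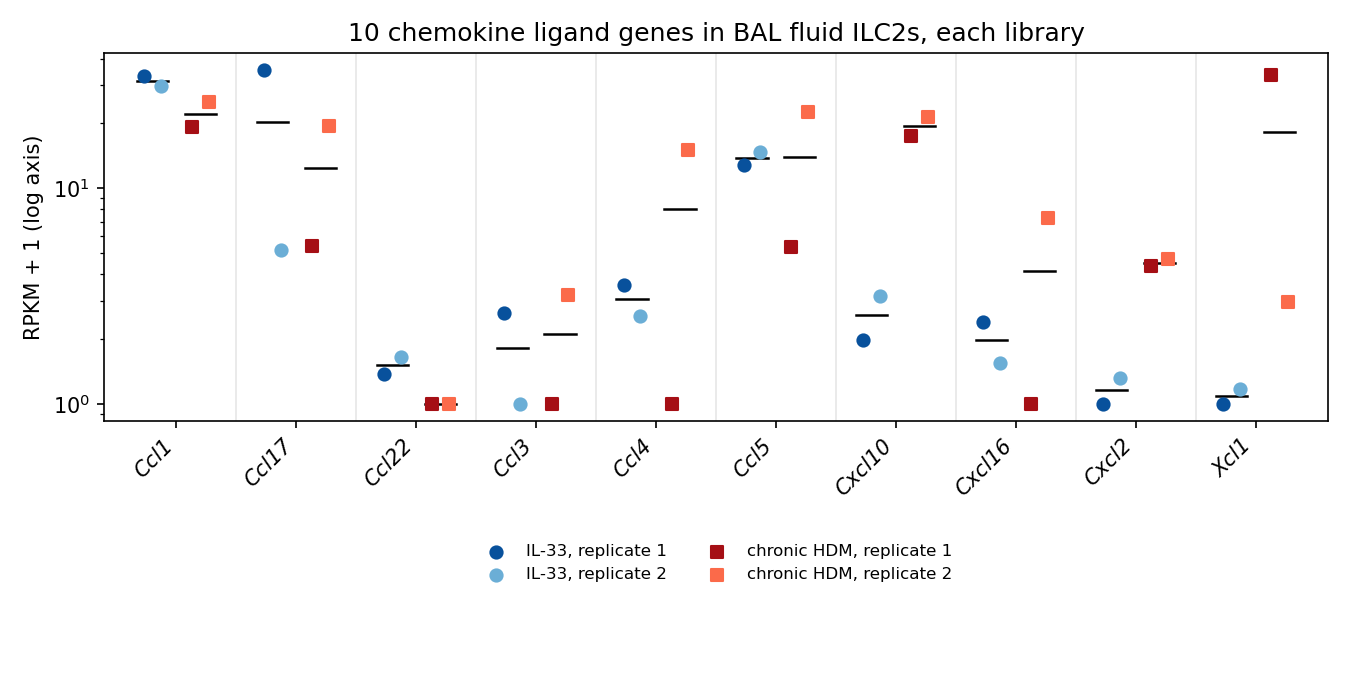
RPKM + 1, on a log axis, of the 10 chemokine ligand genes, each of the 4 libraries being 1 point (circles for IL-33, squares for chronic HDM) and a black line at each group mean of 2 libraries. *Cxcl10* lay at 0.977 and 2.18 RPKM after IL-33, against 16.5 and 20.3 RPKM after chronic HDM, whereas *Ccl17* was spread from 4.18 to 34.5 RPKM within the IL-33 pair.

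**Figure D2:**
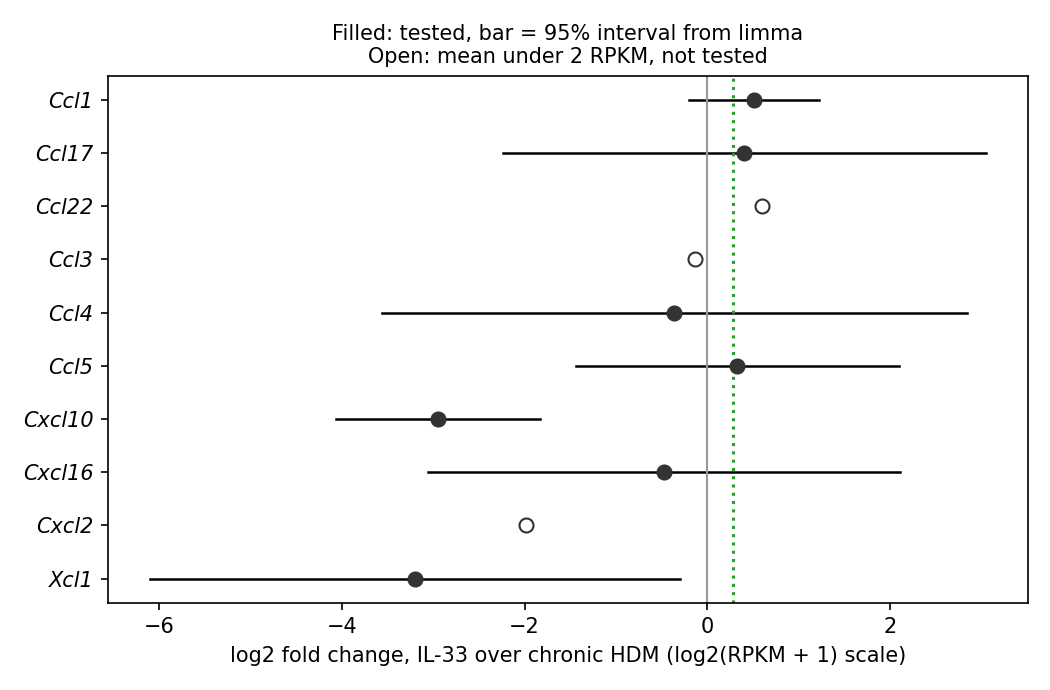
Difference of mean log2(RPKM + 1), IL-33 minus chronic HDM, for each ligand gene. Filled points with bars are tested genes with the 95% interval from limma, open points are genes under a mean of 2 RPKM, and the dotted line is the median of all genes tested (0.28). The intervals of *Cxcl10* (-4.06 to -1.83) and *Xcl1* (-6.10 to -0.30) lay below 0 and the other 5 spanned 0.

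*Ccl1* encodes a CC chemokine that acts through CCR8, and its replicates were close in both groups. The gene lies at chr11:82176666-82179812 of mm10, on the minus strand. *Ccl1* had 32.1 and 28.8 RPKM after IL-33, against 18.3 and 24.0 RPKM after chronic HDM (210 and 169 reads against 176 and 221). Both IL-33 libraries were above both chronic HDM libraries in RPKM as deposited. Libraries did not overlap between the groups, in either direction, for 65.2% of all genes tested. Whether those of *Ccl1* stay apart under other scalings was not tested. The means were 30.4 ± 2.32 RPKM after IL-33, against 21.2 ± 4.04 RPKM after chronic HDM (SD, n = 2 each), a log2 fold change of 0.51 (standard error 0.29, 95% interval -0.20 to 1.23, adjusted p = 0.251 from limma), which did not pass. The log2 fold change was 0.19 with quantile normalization, 0.29 with median-of-ratios scaling and 0.24 without 45S ribosomal RNA. In the main fit the median of all genes tested was 0.28. The mean over all libraries, 25.8 RPKM, was above that of 66.6% of the genes tested. RNA of its receptor was far more abundant per length: *Ccr8* had 667 and 648 RPKM after IL-33, against 642 and 560 RPKM after chronic HDM (log2 fold change 0.13, 95% interval -0.23 to 0.49, adjusted p = 0.541 from limma). Ligand and receptor were thus both present in every library.

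*Ccl17* and *Ccl22*, which encode the CCR4 ligands TARC and MDC, are neighbours on chromosome 8 with the fractalkine gene *Cx3cl1* between them. *Ccl17* (chr8:94810453-94812036, plus strand) had 34.5 and 4.18 RPKM after IL-33, against 4.39 and 18.5 RPKM after chronic HDM (230 and 25 reads against 43 and 173). Both chronic HDM values lay between the IL-33 values, and each group held 1 high and 1 low library. The log2 difference of 2.78 between the IL-33 replicates was larger than that of 99.97% of genes tested in this pair. The group means differed by a log2 fold change of 0.40 (standard error 1.06, 95% interval -2.24 to 3.05, adjusted p = 0.812 from limma). It turned to -0.98 without IL-33 replicate 1 and to -0.52 without chronic HDM replicate 1, so its direction rests on single libraries. The same 2 libraries that were high in *Ccl17*, IL-33 replicate 1 and chronic HDM replicate 2, were the higher of their pair for 11 of 18 macrophage markers, and the part of this in *Ccl17* was not tested. Dendritic cells are a known source of CCL17. Their listed markers summed to 2127 and 2148 RPKM after IL-33, against 219 and 356 RPKM after chronic HDM. Most of this came from *H2-Ab1*, *Cd74* and *H2-Eb1* in every library. The paper describes MHC class II among the molecules that ILC2s can express, so these sums do not measure dendritic cell RNA alone. Of these 10 markers, 6 were higher in chronic HDM replicate 2 and 1 in replicate 1. In the IL-33 pair the order was the other way, with 2 higher in replicate 1 and 5 in replicate 2. Over all genes tested, 44.2% were higher in chronic HDM replicate 2 and 48.8% in IL-33 replicate 1. The part of dendritic cell RNA in *Ccl17* was not tested. *Ccl22* (chr8:94745684-94751388, plus strand) was at 0.380 and 0.660 RPKM after IL-33 (9 and 14 reads), with no read in either chronic HDM library. The IL-33 mean was 5.89-fold a floor of 3 reads per library, a floor that covers counting error only and leaves out the spread between libraries. With a mean of 0.260 RPKM it was under the minimum and not tested.

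The receptor of these ligands differed more clearly. *Ccr4* had 59.6 and 59.8 RPKM after IL-33, against 3.21 and 5.20 RPKM after chronic HDM. This was a log2 fold change of 3.57 (standard error 0.34, 95% interval 2.73 to 4.41, adjusted p = 0.00687 from limma). *Ccr4* was the 1 receptor called, against 3.34% of all genes tested. The adjusted p was 0.01004 to 0.01132 under 3 other scalings, which ends the call, and ranged from 6.08e-05 to 0.324 over the 16 alternatives.

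*Cxcl10*, whose product IP-10 is induced by interferons and attracts cells with CXCR3, was the tested ligand with the lowest p-value. It lies at chr5:92346639-92348889 on the minus strand. *Cxcl10* had 0.977 and 2.18 RPKM after IL-33, against 16.5 and 20.3 RPKM after chronic HDM (14 and 28 reads against 346 and 409). Both chronic HDM libraries were well above both IL-33 libraries, and the log2 difference between the chronic HDM replicates exceeded that of 27.8% of the genes tested. The difference between the IL-33 replicates, at 14 and 28 reads, exceeded that of 90.5%. The means were 1.58 ± 0.850 RPKM after IL-33, against 18.4 ± 2.74 RPKM after chronic HDM (SD, n = 2 each). This gave a log2 fold change of -2.94 (standard error 0.45, 95% interval -4.06 to -1.83, adjusted p = 0.0135 from limma), short of the threshold of 0.01. The study, with its own DESeq2 test at the same thresholds, reported *Cxcl10* as increased after chronic HDM. Missing the threshold here is thus a result of the limma fit and not of the study's test. *Cxcl10* passed without chronic HDM replicate 1 (adjusted p = 0.00243, 25.1% of all genes called) and without chronic HDM replicate 2 (adjusted p = 0.00511, 27.9% called). Without either IL-33 library the adjusted p was 0.297 to 0.326 and no gene was called. Under the 16 alternatives the log2 fold change stayed between -3.75 and -2.52, with adjusted p-values from 0.00237 to 0.326. Of its GENCODE exon bases, 133 of 2252 are shared with *Art3* on the other strand, whose deposited value comes from a transcript that does not reach *Cxcl10* and is not used.

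*Cxcl2* encodes MIP-2, a ligand of CXCR2. Its gene lies at chr5:90903899-90905938 on the plus strand, in another group of chemokine genes on the same chromosome. *Cxcl2* had 0 and 0.316 RPKM after IL-33, against 3.38 and 3.69 RPKM after chronic HDM (0 and 4 reads against 70 and 73). A count of 0 allows up to 3 reads, or 0.213 RPKM of *Cxcl2* in IL-33 replicate 1. This floor, here and for the other zeros, covers counting error only. It leaves out transcripts lost when the library was made. The chronic HDM replicates were close and both lay above the IL-33 libraries. The log2 fold change was -1.98 on the log2(RPKM + 1) scale, with no test at a mean of 1.85 RPKM. It moved to -1.36 with a pseudocount of 2, -4.15 with a pseudocount of 0.1 and -5.10 with limma-voom. With a filter of at least 2 RPKM in 2 libraries *Cxcl2* was tested and not called (adjusted p = 0.0260 from limma, with 0.0260 to 0.409 over the alternatives that tested it). The receptors of *Cxcl10* and *Cxcl2* were scarce in these cells. *Cxcr3* had 0.285 and 0.584 RPKM after IL-33, against 0 and 3.32 RPKM after chronic HDM, and *Cxcr2* had 1 read over all 4 libraries. The sum of neutrophil markers, which include *Cxcr2*, was also higher after chronic HDM (0.420 and 0.566 RPKM after IL-33, 14.1 and 9.17 RPKM after chronic HDM), through *S100a8*, and its part in *Cxcl2* was not tested.

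*Cxcl10* and *Cxcl2* were the ligands that lay higher in both chronic HDM libraries, which were close to each other, and both are textbook targets of NF-κB, so the stretches before their start sites are shown. The letters are from the RefSeq promoter table (GRCm38.p6), which held 7 of the 10 genes and not *Ccl4*, *Ccl5* or *Cxcl16*. They run 5′ to 3′ on the strand of the gene, with matches to the κB consensus and to the core of the interferon-stimulated response element (ISRE, GAAANNGAAA) in capitals. The *Cxcl10* stretch is chr5:92348975-92349114 (225 to 86 bases before the start, minus strand) and the *Cxcl2* stretch is chr5:90903789-90903843 (110 to 56 bases before the start, plus strand).
Cxcl10: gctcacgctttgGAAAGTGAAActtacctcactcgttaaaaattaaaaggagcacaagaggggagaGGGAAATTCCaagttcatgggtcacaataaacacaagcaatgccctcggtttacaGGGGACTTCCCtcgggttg
Cxcl2: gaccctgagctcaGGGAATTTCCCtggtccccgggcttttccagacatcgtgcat

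In these windows of 300 bases, read on both strands with overlapping matches counted as 1 place, *Cxcl10* had an ISRE core 213 bases and κB matches 159 and 104 bases before its start, and *Cxcl2* had a κB match at 97 bases. *Ccl1* had a κB match at 196 bases, and *Ccl17* a STAT-type core (TTCNNNGAA) at 99 bases. Matches to κB were found for 3 of the 7 ligands, against 8.46% of 32851 promoters, to the ISRE core for 1, against 3.44%, and to the STAT-type core for 1, against 8.30%. *Ccl3*, *Ccl22* and *Xcl1* held none of these letters in their windows. A match describes the letters and not a bound site.

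*Xcl1* encodes lymphotactin, the C chemokine known from NK cells and CD8 T cells, and reached the highest level of any of the 10 ligands in the chronic HDM group, in a single library. It lies at chr1:164931648-164935510 on the minus strand. *Xcl1* had 0 and 0.171 RPKM after IL-33, against 32.4 and 1.97 RPKM after chronic HDM (0 and 1 read against 310 and 18). The 0 allows up to 0.461 RPKM. The groups did not overlap, but the chronic HDM replicates differed by 3.49 on the log2 scale, more than 98.9% of genes tested in that pair. The log2 fold change was -3.20 (standard error 1.16, 95% interval -6.10 to -0.30, adjusted p = 0.110 from limma), which did not pass. Without chronic HDM replicate 1 it was -1.46 and the gene was under the minimum, and without chronic HDM replicate 2 it was -4.95. With all libraries kept, the lowest adjusted p over the alternatives was 0.0151 from limma with the replicate block. Chronic HDM replicate 1, the library with 310 *Xcl1* reads, had no read of any of the 6 NK cell markers or of *Cd8a* and *Cd8b1*, whereas chronic HDM replicate 2, with 18, had *Gzma* at 62.04 RPKM. The sort removed cells with surface NK1.1 or CD8α, so these zeros are not independent of the gate. Of 10 T cell markers, 5 were higher in chronic HDM replicate 1, as *Xcl1* was, among them *Cd247* (592 and 94 reads) and *Cd3e* (67 and 0 reads). The 1 higher in replicate 2 was *Cd3g* (68.8 and 83.3 RPKM), beside 44.2% of all genes tested. After IL-33, where *Xcl1* had 0 and 1 read, *Cd247* had 189 and 169 reads and *Cd3e* 20 and 7. The part of NK or T cell RNA in *Xcl1* was not tested. Of the 523 exon bases of *Xcl1*, 98 are shared with *Gm20743* on the other strand, whose deposited value comes from a transcript that does not reach *Xcl1* and is not used. The receptor gene *Xcr1* had 6.42 and 6.16 RPKM after IL-33, against 3.66 and 2.38 RPKM after chronic HDM (log2 fold change 0.88, 95% interval -0.22 to 1.98, adjusted p = 0.210 from limma).

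*Ccl3*, *Ccl4* and *Ccl5* encode MIP-1α, MIP-1β and RANTES, CC chemokines that attract monocytes and T cells. CCL3 and CCL5 act through CCR1, and CCL5 also through CCR3. *Ccl5* (chr11:83525779-83530518, minus strand) had 11.9 and 13.8 RPKM after IL-33, against 4.35 and 21.6 RPKM after chronic HDM (82 and 85 reads against 44 and 209). The IL-33 replicates agreed, and the chronic HDM libraries lay on either side of them. The means were 12.8 ± 1.31 RPKM after IL-33, against 12.98 ± 12.2 RPKM after chronic HDM (SD, n = 2 each), with a log2 fold change of 0.33 (standard error 0.71, 95% interval -1.44 to 2.10, adjusted p = 0.770 from limma). It turned to -0.71 without chronic HDM replicate 1. *Ccl4* (chr11:83662584-83664683, plus strand) had 2.56 and 1.56 RPKM after IL-33, against 0 and 14.1 RPKM after chronic HDM (22 and 12 reads against 0 and 170), where the 0 allows up to 0.238 RPKM. The lowest and the highest values were those of the chronic HDM pair, whose log2 difference of 3.92 exceeded that of 99.4% of genes tested. The log2 fold change of *Ccl4* was -0.36 (standard error 1.28, 95% interval -3.57 to 2.84, adjusted p = 0.863 from limma). Without chronic HDM replicate 1 it was -2.32, and without chronic HDM replicate 2 it was 1.59, in the other direction. With all libraries kept, the lowest adjusted p over the alternatives was 0.742 from limma with a pseudocount of 2. *Ccl3* (chr11:83647843-83649378, minus strand) had 1.65 and 0 RPKM after IL-33, against 0 and 2.22 RPKM after chronic HDM (17 and 0 reads against 0 and 32), and was not tested at a mean of 0.967 RPKM. Each group thus held 1 library with *Ccl3* reads and 1 without.

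*Cxcl16* encodes the transmembrane ligand of CXCR6 and lies at chr11:70454234-70459984 on the minus strand, away from the other ligand genes of that chromosome. *Cxcl16* had 1.41 and 0.558 RPKM after IL-33, against 0 and 6.26 RPKM after chronic HDM (45 and 16 reads against 0 and 281), where the 0 allows up to 0.0639 RPKM. As for *Ccl4*, both extremes were chronic HDM libraries. The fitted log2 fold change was -0.48 (standard error 1.03, 95% interval -3.06 to 2.11, adjusted p = 0.771 from limma), and 0.95 without chronic HDM replicate 2. Of its 3021 exon bases, 552 are shared with *Zmynd15* on the other strand, which was at or below 0.273 RPKM in every library. *Cxcr6* was abundant, at 795 and 718 RPKM after IL-33, against 700 and 607 RPKM after chronic HDM (log2 fold change 0.21, 95% interval -0.16 to 0.58, adjusted p = 0.353 from limma). *Adam10* and *Adam17*, proteases that can shed CXCL16, were tested and not called, at 11.99 and 16.3 RPKM after IL-33, against 17.9 and 18.6 RPKM after chronic HDM for *Adam10*, and 21.01 and 20.6 RPKM after IL-33, against 42.8 and 18.6 RPKM after chronic HDM for *Adam17*.

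Replicate agreement separated the ligands. Chronic HDM replicate 1 had reads for 10675 genes, the fewest of the 4 libraries, with the most reads in genes (16092353). The part of this in its zeros and in the differences between replicates was not tested. The median absolute log2 difference over all genes tested was 0.23 within the IL-33 pair and 0.57 within the chronic HDM pair. *Ccl1*, *Cxcl2* and *Cxcl10* were below the second value in the chronic HDM pair (0.37, 0.10 and 0.29), while *Ccl3*, *Ccl4*, *Ccl5*, *Ccl17*, *Cxcl16* and *Xcl1* were above it, from 1.69 to 3.92. In the IL-33 pair *Ccl1* was below the median (0.15), whereas *Cxcl2* (0.40) and *Cxcl10* (0.69) were above it. Of the 10 ligands 8 were higher in chronic HDM replicate 2 than in replicate 1, 1 was lower (*Xcl1*) and 1 had no read in either (*Ccl22*), and 44.2% of all genes tested were higher in replicate 2. The same held for 15 of 18 macrophage markers, with *Apoe* at 0 RPKM in replicate 1 and 61.7 RPKM in replicate 2 and *Cd68* at 5.54 and 51.7 RPKM. *Mertk* (12.8 RPKM in replicate 1 and 7.88 RPKM in replicate 2) and *Adgre1* (9.25 and 3.43 RPKM) ran the other way. In the IL-33 pair, 5 ligands and 12 macrophage markers were higher in replicate 1. Both held for 5 of 10 ligands (*Ccl1*, *Ccl3*, *Ccl4*, *Ccl17* and *Cxcl16*) and 11 of 18 macrophage markers, against 2063 of 9523 genes tested (21.7%). Macrophages are a known source of several of these ligands, and the part of macrophage RNA in their values was not tested. For *Cxcl10* and *Cxcl2* the levels were 16.5 and 3.38 RPKM in chronic HDM replicate 1 and 20.3 and 3.69 RPKM in replicate 2. The macrophage sum in the same libraries was 3112 and 8648 RPKM, and 35.2 and 227 RPKM without *Chil3* and *Lyz2*. *Mertk* and *Adgre1*, picked after their values were seen, were at 0.130 RPKM or less after IL-33 and present in both chronic HDM libraries. They do not stand for the list of 18 macrophage markers. Of these, 13 and 12 had reads in IL-33 replicates 1 and 2, and 8 and 17 in chronic HDM replicates 1 and 2. The part of macrophage RNA in *Cxcl10* and *Cxcl2* was not tested.

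**Figure D3:**
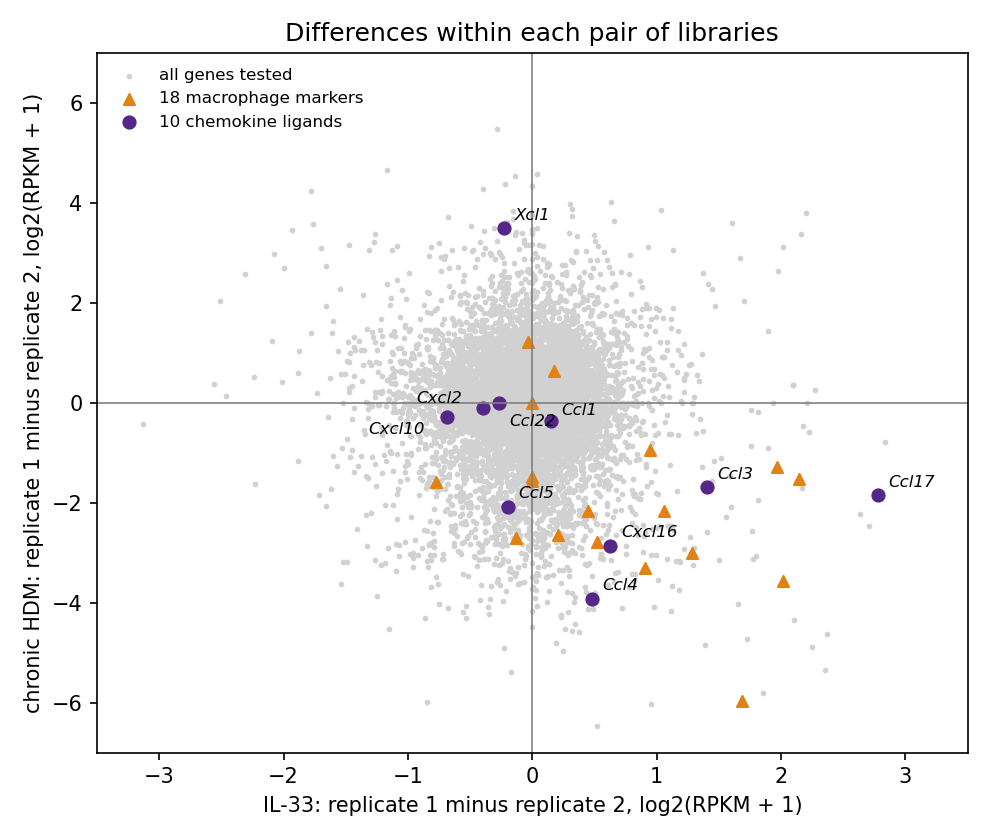
Difference of log2(RPKM + 1) between replicate 1 and replicate 2 of the IL-33 pair (horizontal axis) and of the chronic HDM pair (vertical axis). Grey points are the 9523 genes tested, purple circles the 10 ligands and orange triangles the 18 macrophage markers. *Ccl17*, *Ccl3*, *Cxcl16* and *Ccl4* lie at the lower right with many macrophage markers, *Xcl1* lies at the top (3.49), and *Ccl1*, *Cxcl2*, *Cxcl10* and *Ccl22* lie near 0 on the vertical axis.

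The make-up of the ligand RNA differed among all 4 libraries. The 10 genes summed to 85.5 and 52.2 RPKM after IL-33, against 79.3 and 113 RPKM after chronic HDM. *Ccl1* contributed 37.5% and 55.2% of this sum after IL-33, against 23.1% and 21.3% after chronic HDM. *Cxcl10* contributed 1.14% and 4.18% after IL-33, against 20.7% and 18.04% after chronic HDM. The shares of these genes were close within the chronic HDM pair and further apart within the IL-33 pair. *Ccl17* led in IL-33 replicate 1 with 40.4% and made up 8.02% in replicate 2. *Xcl1* led in chronic HDM replicate 1 with 40.9% and made up 1.75% in replicate 2, where *Ccl5* (19.2%), *Ccl17* (16.4%) and *Ccl4* (12.5%) took larger shares.

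**Figure D4:**
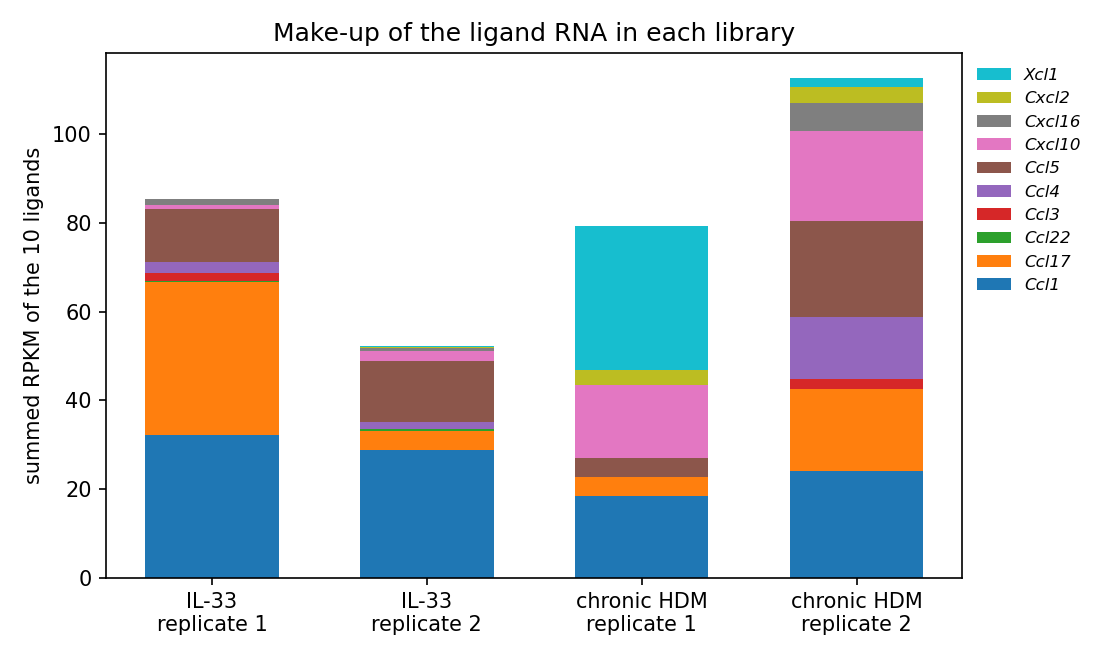
Summed RPKM of the 10 ligand genes in each library, stacked by gene, from a baseline of 0. *Ccl1* (bottom) is present in every bar, *Ccl17* is widest in IL-33 replicate 1 (34.5 RPKM) and *Xcl1* in chronic HDM replicate 1 (32.4 RPKM), while *Cxcl10* is wide in both chronic HDM bars.

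The ligand genes lie in groups on the chromosomes, and neighbours did not always go together. The 5 genes between 83525779 and 83664683 on chromosome 11 (*Ccl5*, *Ccl9*, *Ccl6*, *Ccl3* and *Ccl4*) were all higher in chronic HDM replicate 2 than in replicate 1, and 4 of them, all but *Ccl5*, were higher in IL-33 replicate 1 than in replicate 2. Of the 6 genes around *Ccl1* on the same chromosome (82035577 to 82179812), *Ccl8* was mainly present in chronic HDM replicate 2 (10.6 RPKM). In RPKM as deposited, *Ccl7*, like *Ccl1*, was higher in both IL-33 libraries than in either chronic HDM library. On chromosome 5, *Cxcl9* and *Cxcl11*, the other CXCR3 ligands and the neighbours of *Cxcl10*, had no read in any library. *Cxcl1*, which encodes another CXCR2 ligand and lies near *Cxcl2*, had none either, whereas *Cxcl5*, a further CXCR2 ligand gene of that group, had 2.22 and 1.96 RPKM after IL-33 and no read after chronic HDM. The IL-33 mean was 21.6-fold the floor of 3 reads per library, which leaves out the spread between libraries. The direction was opposite to that of *Cxcl2*.

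Among 28 other chemokine ligand genes, 14 had no read in any library, 7 were tested and 0 were called by limma, against 3.34% of all genes tested. At an unadjusted p under 0.05 there were 2 of the 7, against 36.7% of all genes, and limma-voom called no gene at all. *Ccl6*, a CC chemokine of mouse myeloid cells, was the most abundant, at 38.5 and 7.80 RPKM after IL-33, against 65.8 and 216 RPKM after chronic HDM (log2 fold change -2.69, 95% interval -4.84 to -0.54, adjusted p = 0.0824 from limma). The study, with its DESeq2 test, reported *Ccl6* too as increased after chronic HDM. *Ccl6* also followed the order of the macrophage markers within both pairs. *Ccl24*, which encodes the CCR3 ligand eotaxin-2, had 32.9 and 19.8 RPKM after IL-33, against 20.4 and 27.3 RPKM after chronic HDM (adjusted p = 0.848 from limma). *Ccl7*, encoding the monocyte attractant MCP-3, had 14.2 and 16.3 RPKM after IL-33, against 0 and 3.56 RPKM after chronic HDM (log2 fold change 2.93, 95% interval 0.99 to 4.87, adjusted p = 0.0526 from limma). *Ccl9* had 5.11 and 1.33 RPKM after IL-33, against 0.0350 and 28.6 RPKM after chronic HDM. *Cxcl3* had 6.94 and 3.45 RPKM after IL-33, against 3.70 and 9.35 RPKM after chronic HDM, and *Ccl8* had 2.72 and 0.841 RPKM after IL-33, against 0 and 10.6 RPKM after chronic HDM. These 3 overlapped between the groups. The 14 genes at 0 include *Ccl19* and *Ccl21a*, which have near copies in the mouse genome, and since the tables were made from tag sets named as unique, reads shared by such copies may not be in them.

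Of 12 receptor, sheddase and atypical receptor genes, 8 were tested, and *Ccr4* was the 1 called (higher after IL-33), against 3.34% of all genes tested. *Ccr1* was lowest in chronic HDM replicate 1, as *Ccl4* and *Ccl5* were, whereas *Ccr3* was highest there. *Ccr1* had 25.5 and 28.1 RPKM after IL-33, against 5.02 and 23.7 RPKM after chronic HDM (log2 fold change 1.19, 95% interval -0.51 to 2.88, adjusted p = 0.262 from limma). *Ccr3* had 2.22 and 2.42 RPKM after IL-33, against 7.46 and 0.599 RPKM after chronic HDM. The atypical receptor genes *Ackr1* and *Ackr2* had no read.

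**Figure D5:**
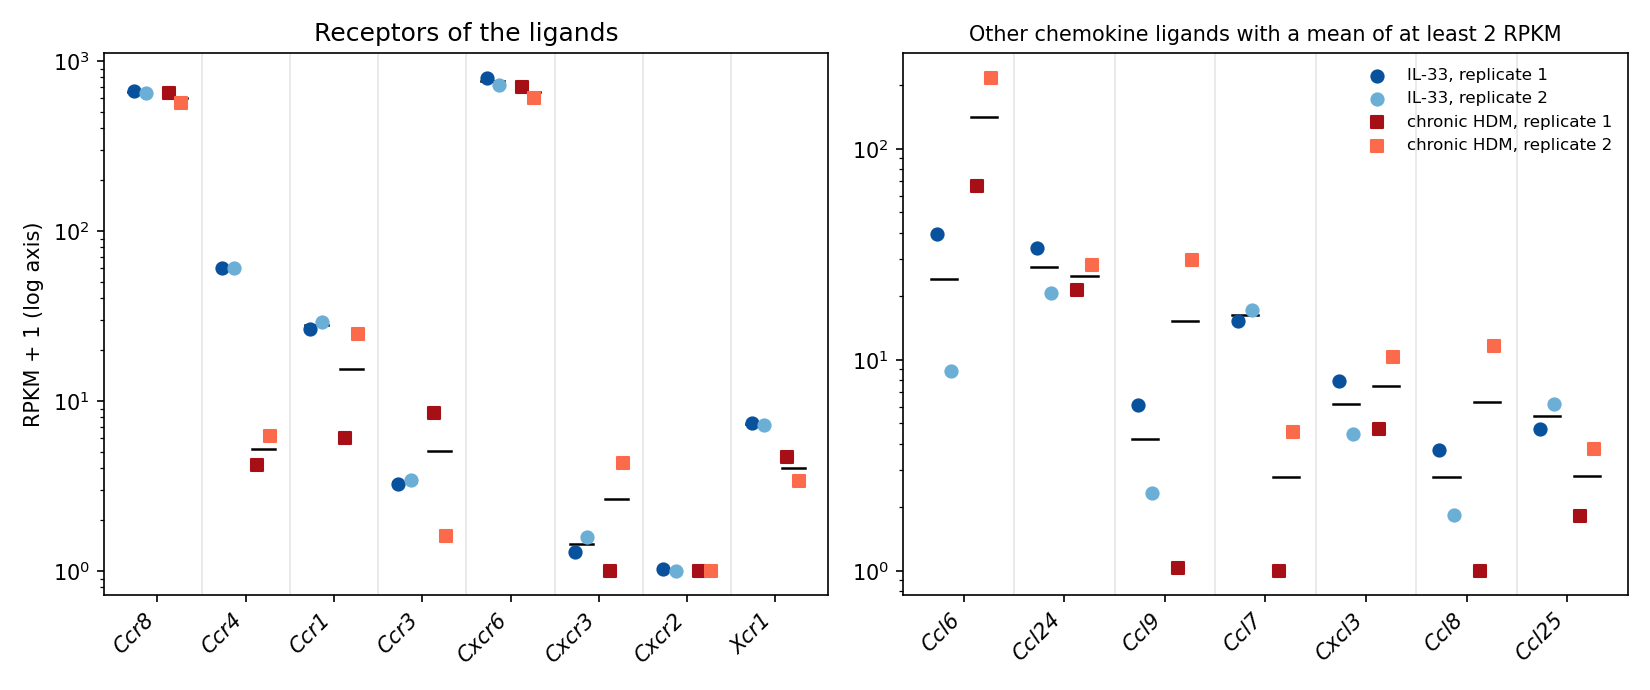
RPKM + 1, on log axes, of the 8 receptor genes (left) and of the 7 other ligand genes averaging 2 RPKM or more (right), with a point for each library (circles for IL-33, squares for chronic HDM) and a black line at each group mean of 2 libraries. *Ccr8* and *Cxcr6* are high in all 4 libraries, *Ccr4* lies at 59.6 and 59.8 RPKM after IL-33, against 3.21 and 5.20 RPKM after chronic HDM, and *Ccl6* reaches 216 RPKM in chronic HDM replicate 2.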

How the data were processed

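Smart-seq2 libraries of sorted BAL fluid ILC2s, 2 per group, were sequenced by the authors as single 51-bp reads and aligned to mm10 with HISAT2 (2.0.4 in the submitters' processing notes). The deposited values are RPKM, made with HOMER over the exons of 1 RefSeq transcript per gene after scaling to 10000000 reads, per the file headers. The authors' own test was DESeq2 within HOMER. Smart-seq2 keeps no strand and no molecular identifiers.

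RPKM values were used as deposited. RPKM times exon length gave steps of 1 read, and 99.8% to 100% of values worth 20 reads or fewer were whole within 0.1 of a read. For an exon length of 1 kb, a floor of 3 reads equals 0.229 and 0.255 RPKM after IL-33, against 0.156 and 0.163 RPKM after chronic HDM. Reads of 45S ribosomal RNA were 4.95% and 3.45% of reads in genes after IL-33, against 17.4% and 25.4% after chronic HDM. Genes averaging 2 RPKM or more were tested on log2(RPKM + 1) with limma 3.58.1 (R 4.3.3, intensity trend, two-sided, Benjamini-Hochberg adjustment over 9523 genes). The thresholds are those of the study's methods, whereas the test is another one. The procedure was tested on simulated data with the same spread in every library, whereas the real chronic HDM pair was wider than the IL-33 pair. This does not show how calls behave at the real spread. The alternatives were 2 pseudocounts, 2 filters, 3 scalings, 2 variance settings, the replicate block, limma-voom, a looser threshold and leaving out each library. The genes named are the 10 ligands, other ligands and receptors that were called or, up to 6 ligands by mean level, reached 2 RPKM, the receptors of tested ligands, and leading or absent markers. *Cxcl5*, *Cxcl9*, *Cxcl11*, *Cxcl1*, *Apoe*, *Cd68*, *Mertk*, *Adgre1*, *Cd247*, *Cd3e*, *Il2ra* and genes overlapping the ligands were named after their values were seen. *Gata3*, *Il1rl1* and *Cxcr2* were also named outside these rules. The ligands and lists were chosen with earlier results of these data known. A receptor and a marker from these lists are not reported here.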

Additional observations from a re-analysis of the deposited data

How the results depend on the processing

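The 318 genes called in all became 470 with a pseudocount of 2, 258 with at least 2 RPKM in 2 libraries and 297 with robust variances, against 88 with quantile normalization (54.5% of them higher after IL-33, beside 84.0%), 125 with median-of-ratios scaling (68.0%), 82 without 45S ribosomal RNA (64.6%), 1254 with the replicate block and 1766 at an adjusted p under 0.05. There were 0 calls with a pseudocount of 0.1, no minimum, no trend or limma-voom, and 0 to 2624 when 1 library was left out (0 without either IL-33 library, 2394 and 2624 without chronic HDM replicates 1 and 2). The scalings moved the median of all genes by -0.25, -0.21 and -0.26, and no ligand changed sign under them. Called ligands numbered 1 (*Cxcl10*) with the replicate block (adjusted p = 0.00237 from limma) and at an adjusted p under 0.05, 0 to 2 without 1 library (*Cxcl10* with *Ccl4* without chronic HDM replicate 1, and with *Xcl1* without replicate 2), and 0 otherwise. Other ligands called numbered 2 with the block (*Ccl6* and *Ccl7*) and 0 to 2 without 1 library (*Ccl7*, with *Ccl9* without chronic HDM replicate 1). Receptors called numbered 0 with a pseudocount of 0.1, no minimum, any of the 3 scalings, no trend or limma-voom, and numbered 0 to 2 without 1 library (*Ccr1* joined *Ccr4* without chronic HDM replicate 2).

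Signs turned for *Ccl4* (0.82 with a pseudocount of 0.1, 1.39 with limma-voom, 1.59 without chronic HDM replicate 2), *Cxcl16* (0.32, 1.75 and 0.95 in the same settings), *Ccl17* (-0.98 without IL-33 replicate 1, -0.52 without chronic HDM replicate 1), *Ccl5* (-0.71 without chronic HDM replicate 1) and the untested *Ccl3* (-0.14, against 0.04 with limma-voom, 0.57 without IL-33 replicate 2 and 0.70 without chronic HDM replicate 2). Without 1 library in turn, the log2 fold change ranged from -2.32 to 1.59 for *Ccl4*, -1.91 to 0.95 for *Cxcl16*, -0.98 to 1.79 for *Ccl17* and -0.71 to 1.37 for *Ccl5*. The cause was not tested. *Ccl1*, *Ccl22*, *Cxcl2*, *Cxcl10* and *Xcl1* kept their sign in all 16 alternatives. Deviations of same-numbered libraries correlated at r = -0.04 over 9523 genes. This cannot show whether same-numbered libraries share a batch, since a batch may act on few genes or differently in each group. The labels give only a number. A fit without 1 library takes its spread from the other group's pair. Few reads limit *Ccl3*, *Ccl22*, *Cxcl2* and, after IL-33, *Cxcl10* and *Xcl1*.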
